A study of Homo sapiens with 4 samples.

Results

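The imprinted miRNA cluster at 14q32, on the long arm of human chromosome 14, was examined in HepG2 cells exposed to berberine. Its members were the 49 mature miRNAs of the region on a fixed list of names, matched by exact name to the probes of the microarray. All 49 were found among the 851 human miRNAs on the array. HepG2 is an established line of human liver cancer cells, and berberine is a plant isoquinoline alkaloid. Cells received berberine chloride at 40 µM or, as the control, dimethyl sulphoxide (DMSO, the solvent) at 0.08%, for 2 h or 4 h. The labels name no genotype other than that of the line. Each of the 4 conditions was measured on 1 array, and all 4 arrays lay on 1 slide read in 1 scan, so no value below has a replicate. The error given with a signal is the measurement error that the image software assigned within an array, and it holds no spread between cultures.

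The region is imprinted, which means that the copy inherited from 1 parent is used and the other is silenced. The noncoding RNAs of the locus, MEG3, MEG8, MEG9 and the miRNA hairpins, are made from the maternal chromosome, whereas DLK1, RTL1 and DIO3 are made from the paternal one. The hairpins lie in a smaller group near MEG3 and RTL1 and a larger group further along the chromosome. A miRNA binds messenger RNAs mainly through its seed, bases 2 to 8 from its 5′ end. The cluster is known for its use in brain, placenta and embryonic tissue and for its silencing in many adult tissues.

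In the RefSeq gene table the members came from 43 hairpins. Of these hairpins, 3 lay between MEG3 and RTL1, 5 lay within the interval of RTL1, 1 lay within MEG8 and 34 lay between MEG8 and MEG9. Mature sequences were found in RefSeq for 48 of the 49 members. Old array names without an arm were matched to the present arm by the registry's renaming, which the deposited data do not state. The sequences of the 3 members that were detected at all are given with that of hsa-miR-487a, an undetected near relative of hsa-miR-487b, and with those of hsa-miR-376a and hsa-miR-376b, undetected members that share a seed. The capitals mark the seed, and all lie on the plus strand of GRCh38.p14.
hsa-miR-494: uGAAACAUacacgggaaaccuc
hsa-miR-487b: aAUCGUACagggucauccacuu
hsa-miR-134: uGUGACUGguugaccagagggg
hsa-miR-487a: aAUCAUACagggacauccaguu
hsa-miR-376a: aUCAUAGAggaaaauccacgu
hsa-miR-376b: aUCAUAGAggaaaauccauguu
Mature hsa-miR-494 lies at chr14:101029681-101029702, hsa-miR-487b at chr14:101046505-101046526 and hsa-miR-134 at chr14:101054694-101054715. Mature hsa-miR-487a, at chr14:101052494-101052515, had the same base as hsa-miR-487b at 19 of 22 positions. With positions counted from the 5′ end and the base of hsa-miR-487b first, the differences were G5A, U13A and C20G, the first of them inside the seed. The 48 sequences held 47 different seeds. The shared seed, UCAUAGA, was that of hsa-miR-376a and hsa-miR-376b, members of a family known for A-to-I editing of its precursors in brain. The seeds of hsa-miR-494 and hsa-miR-487b were found in no other human mature sequence of the table. That of hsa-miR-134 was shared with miR-3118.

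Few members of the cluster were detected in these cells. A miRNA counts as detected on an array where at least 1 of its probes gave a signal above 3 times that probe's own error. By this measure 3 of 49 members (6.12%) were detected on at least 1 array, against 29.6% of all 851 human miRNAs. On all 4 arrays 2 members (4.08%) were detected, against 23.1% of all human miRNAs. The number of members detected was 2 in the control at 2 h, 2 with berberine at 2 h, 2 in the control at 4 h and 3 with berberine at 4 h. In the same order of arrays, 27.6%, 23.4%, 26.6% and 28.4% of all human miRNAs were detected. Among the viral miRNAs on the same arrays, 5 of 88 (5.68%) were detected on at least 1 array. These shares are descriptions of 4 arrays of the same cell line and were not tested.

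Liver miRNAs were read beside the cell line's label. The hepatocyte miRNA hsa-miR-122 was detected on all 4 arrays, as were hsa-miR-192 and hsa-miR-194, a pair known from liver and gut. Since 23.1% of all human miRNAs were detected on all 4 arrays, these flags alone do not identify the cells. Other lists were read the same way. All 6 miRNAs of the miR-17-92 cluster, a growth-promoting cluster on chromosome 13, were detected on every array. None of the 37 guide names of C19MC, an imprinted cluster on chromosome 19 known from placenta, was detected on any array. For 14q32 itself, the other 7 guide names on the array gave no detection, and of 11 opposite-strand arms (asterisk names) 1 was detected, hsa-miR-431*.

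**Figure D1:**
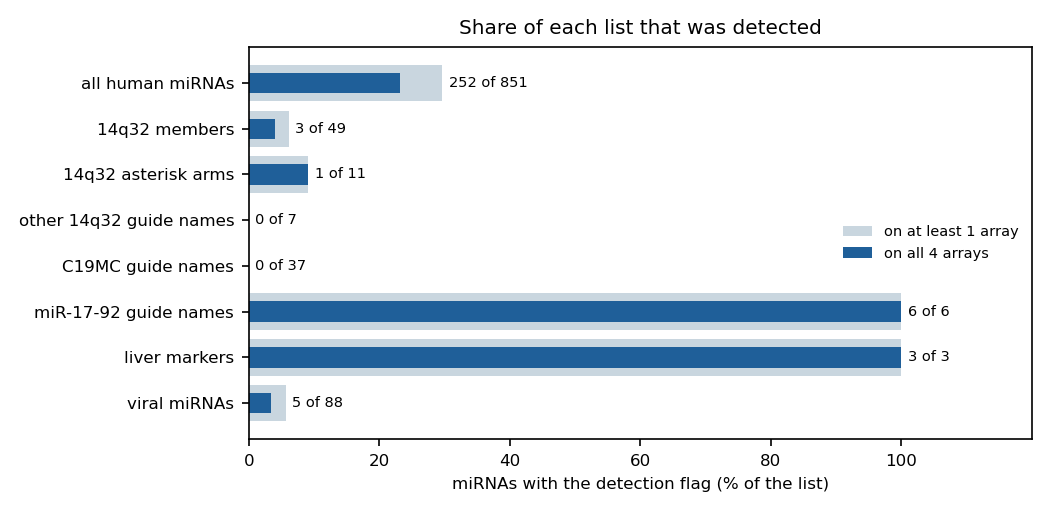
Share of each list of miRNAs that was detected, in percent of the names on the array; pale bars count miRNAs detected on at least 1 of the 4 arrays, dark bars those on all 4, and the label beside each bar gives the count behind the pale bar. The 14q32 members stand at 3 of 49 beside 252 of 851 for all human miRNAs.

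None of the 11 members in the smaller group near MEG3 and RTL1 was detected on any array. Of all 851 human miRNAs, 29.6% were detected on at least 1 array. The 11 members were hsa-miR-493, hsa-miR-337-5p, hsa-miR-337-3p, hsa-miR-665, hsa-miR-431, hsa-miR-433, hsa-miR-127-5p, hsa-miR-127-3p, hsa-miR-432, hsa-miR-136 and hsa-miR-370. The 5 hairpins inside RTL1 are transcribed antisense to it, and miR-127 and miR-136 are known to cut the RTL1 transcript in placenta. Detection was furthest from reach for hsa-miR-370, whose best probe stayed at or below -0.42 of its own error on all 4 arrays. The nearest was hsa-miR-337-3p, whose best probe reached 1.91 errors in the control at 4 h. The best probe of hsa-miR-127-3p reached 0.78 errors, and that of hsa-miR-431 reached 0.01. The opposite arm of the latter hairpin, hsa-miR-431*, is not a member and was detected on all 4 arrays.

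Of the 38 members of the larger group, 3 (7.89%) were detected on at least 1 array, against 29.6% of all 851 human miRNAs. The 35 that were not included hsa-miR-379 and hsa-miR-410, which name the ends of the group in most accounts, hsa-miR-411, hsa-miR-299-5p, hsa-miR-299-3p, hsa-miR-380, hsa-miR-323-5p, hsa-miR-323-3p, hsa-miR-758, hsa-miR-329, hsa-miR-543 and hsa-miR-495. Further along they included hsa-miR-376a, hsa-miR-376b and hsa-miR-376c, hsa-miR-654-5p, hsa-miR-654-3p, hsa-miR-381, hsa-miR-539, hsa-miR-889, hsa-miR-655, hsa-miR-487a, hsa-miR-382 and hsa-miR-668. The rest were hsa-miR-485-5p, hsa-miR-485-3p, hsa-miR-154, hsa-miR-496, hsa-miR-377, hsa-miR-409-5p, hsa-miR-409-3p, hsa-miR-412, hsa-miR-369-5p, hsa-miR-369-3p and hsa-miR-656. The closest to the limit were hsa-miR-539, at 1.95 errors in the control at 4 h, and hsa-miR-382, at 1.58 errors with berberine at 4 h. Whether detection differed between the smaller and the larger group was not tested.

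The 46 undetected members lay well under the limit. The best probe passed 1 error on some array in 11 of them (23.9%) and passed 2 errors in 0. The other 553 undetected human miRNAs passed 1 error in 222 (40.1%) and 2 errors in 63 (11.4%). Those others had more probes each, 1651 in all against 116 for the 46 members, and the shares were not adjusted for this. The 83 undetected viral miRNAs passed 1 error in 23 (27.7%) and 2 errors in 7 (8.43%). After background subtraction, the mean spot signal had a median over the undetected members of -0.66 in the control at 2 h, -0.11 with berberine at 2 h, -0.10 in the control at 4 h and -0.23 with berberine at 4 h. On the scale of the probe signal, 3 errors had a median over the members' probes of 3.36 to 4.72 on the 4 arrays, and single probes had lower and higher limits. The 7 negative control probes had a median mean spot signal of 3.36, 3.95, 5.19 and 3.86 in the same order of arrays, each above that of the undetected members.

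**Figure D2:**
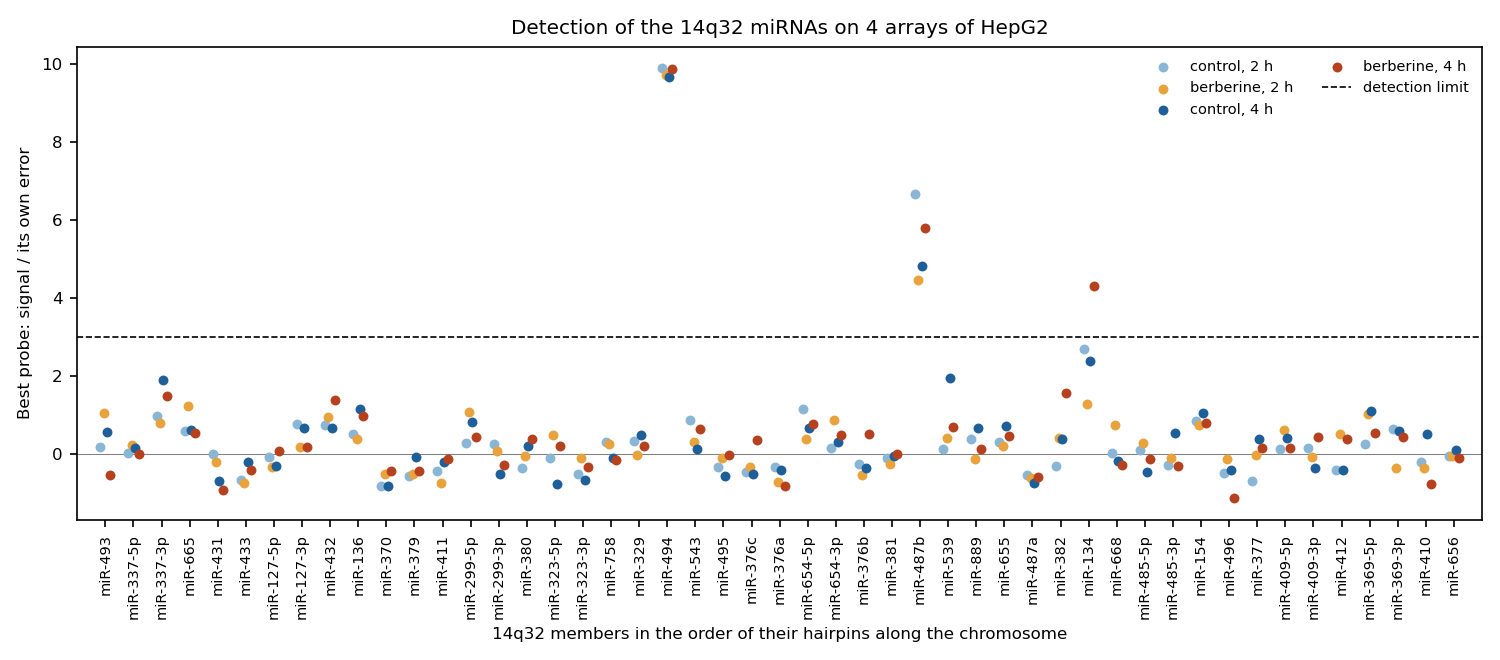
Signal of the best probe divided by that probe's own error (vertical axis) for the 49 members in the order of their hairpins along the chromosome (horizontal axis), with 1 point for each array. The dashed line is the limit of 3 errors: hsa-miR-494 and hsa-miR-487b lie above it on all 4 arrays, hsa-miR-134 on 1, and the other 46 members stay at or under 1.95.

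The 3 detected members were not neighbours. Counted along the chromosome, their hairpins were number 18 (MIR494), number 27 (MIR487B) and number 33 (MIR134) of the 43. Only hairpins of the members were counted, and other hairpins of the locus may lie between them. Among the members, the hairpins beside MIR494 were those of hsa-miR-329, whose best probe reached 0.49 errors, and hsa-miR-543, at 0.89 errors. Beside MIR487B lay those of hsa-miR-381, whose best probe did not rise above 0, and hsa-miR-539. Beside MIR134 lay those of hsa-miR-382 and hsa-miR-668, the latter at 0.75 errors. The near relative hsa-miR-487a stayed at or below -0.52 errors on every array, while hsa-miR-487b, with 3 differing bases, was detected on each.

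hsa-miR-494 was measured well on every array. Its total signal, in the array's intensity units, was 107.16 ± 8.48 in the control at 2 h, 92.46 ± 7.52 with berberine at 2 h, 81.62 ± 6.66 in the control at 4 h and 104.85 ± 8.36 with berberine at 4 h. The highest array thus exceeded the lowest 1.31-fold, and the controls differed from each other by more than either treated array did from its own control. Both of its probes passed 3 errors on all 4 arrays, and 16 of its 16 spots were well above background on each. Probe 1 and probe 2 put the arrays in the same order as the total did.

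The arrays themselves differed in brightness. The 75th percentile of the signal, taken over those 197 human miRNAs that every array detected, was 243 in the control at 2 h, 169 with berberine at 2 h, 225 in the control at 4 h and 297 with berberine at 4 h. Signals were therefore divided by it before ratios were formed. The error of that percentile itself is not part of the standard errors. On that scale hsa-miR-494 stood at 44.0% of the percentile in the control at 2 h, 54.7% with berberine at 2 h, 36.2% in the control at 4 h and 35.3% with berberine at 4 h. The scaled level was thus highest with berberine at 2 h, and the 4 h arrays lay side by side. For comparison, hsa-miR-122 stood at 12.9%, 13.2%, 13.3% and 13.4% in the same order of arrays. The other liver miRNAs varied more, hsa-miR-192 at 521%, 486%, 474% and 526% and hsa-miR-194 at 306%, 294%, 251% and 313%.

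The scaled log2 ratio of berberine over control for hsa-miR-494 was 0.31 (SE 0.16 from the measurement errors) at 2 h, a 1.24-fold difference with a 95% range of 0.994 to 1.55. At 4 h it was -0.04 (SE 0.16), or 0.974-fold, with a range of 0.779 to 1.22. Neither range excluded 1. The control at 4 h over the control at 2 h gave -0.28 (SE 0.16). Without scaling the signs at both times turned, to -0.21 at 2 h and 0.36 at 4 h.

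The 8 spots of each probe can be set beside these ratios, although spots of an array share its RNA and labelling and are no replicates. At 2 h the scaled spots of probe 1 ran from 58.0% to 64.3% of the percentile in the control and from 69.5% to 81.3% with berberine. Those of probe 2 ran from 20.6% to 26.1% and from 26.3% to 31.9%. The scaled spots of the 2 h arrays did not overlap on either probe. How many of all human miRNAs had spots apart in this way was not counted, so the gap cannot be read as particular to hsa-miR-494. Without scaling, the 2 h spots of probe 1 did not overlap either, but with the control higher, at 141 to 156 intensity units against 118 to 138 with berberine. Those of probe 2 then overlapped, at 50.2 to 63.5 in the control against 44.5 to 53.9 with berberine. At 4 h the scaled spots overlapped on both probes, probe 1 running from 44.9% to 57.0% in the control and from 47.0% to 55.1% with berberine. Without scaling, the 4 h spots of probe 1 did not overlap, and berberine was higher. The highest control spot stood at 128.6 intensity units and the lowest berberine spot at 139.8. Those of probe 2 overlapped, with the highest control spot at 50.8 and the lowest berberine spot at 48.3.

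**Figure D3:**
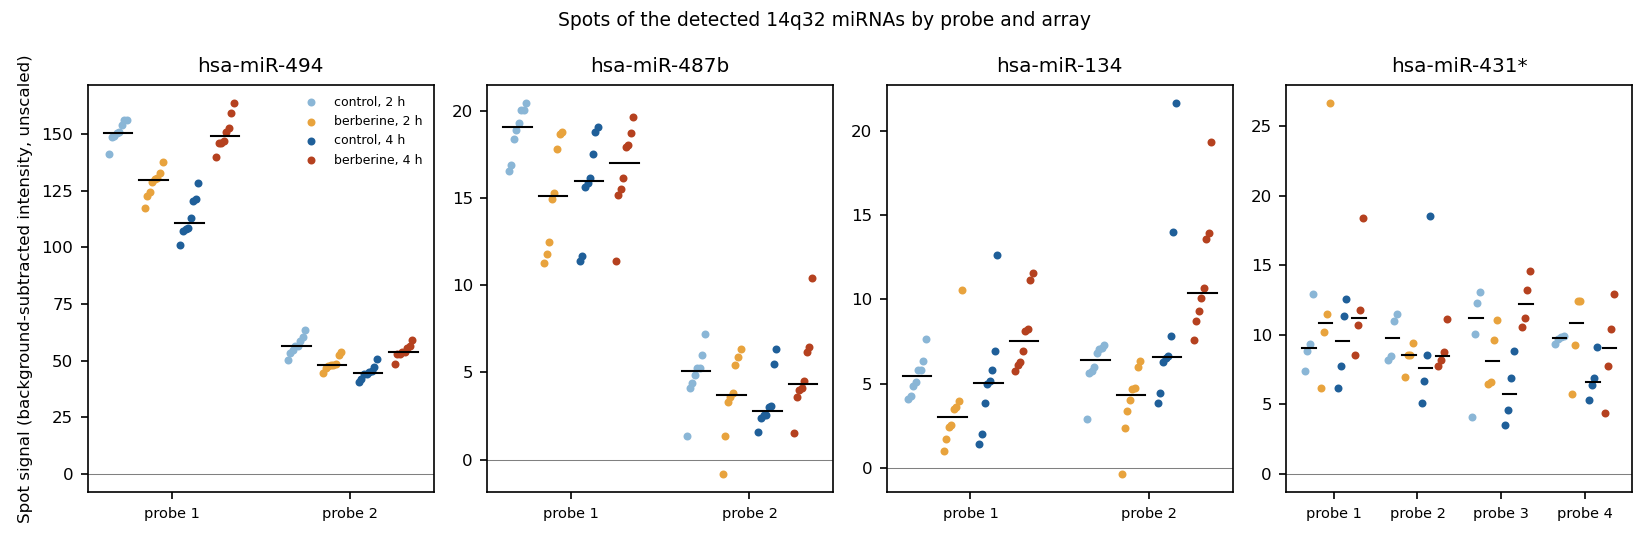
Background-subtracted intensity of every spot, unscaled, of the 3 detected members and of hsa-miR-431*, by probe (horizontal axis) and array (colour); short black lines are medians and each panel has its own vertical scale. Spots of hsa-miR-494 lie far above 0 on all arrays, whereas probe 2 of hsa-miR-487b and both probes of hsa-miR-134 come close to 0 on some.

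hsa-miR-487b was detected on all arrays, but through 1 probe. Its total signal was 10.07 ± 1.51 in the control at 2 h, 7.91 ± 1.77 with berberine at 2 h, 8.17 ± 1.69 in the control at 4 h and 8.48 ± 1.46 with berberine at 4 h. The highest and the lowest differed by less than their combined error. Probe 1 carried the whole signal, with 8, 4, 6 and 7 of its 8 spots well above background in the same order of arrays. Probe 2 never passed 3 errors and stood at 2.15, 1.40, 1.11 and 2.03 errors.

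The scaled log2 ratio of berberine over control for hsa-miR-487b was 0.18 (SE 0.39) at 2 h, a 1.13-fold difference with a 95% range of 0.667 to 1.91. At 4 h it was -0.34 (SE 0.39), or 0.788-fold, with a range of 0.465 to 1.34. The control at 4 h over the control at 2 h gave -0.19 (SE 0.37). Summing its 2 probes, whether or not they passed the limit, gave 0.22 (SE 0.40) at 2 h and -0.24 (SE 0.41) at 4 h. No ratio of this miRNA was larger than its error, and differences inside those ranges were not detectable here.

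hsa-miR-134, known for its action on LIMK1 messenger RNA at dendritic spines, was detected with berberine at 4 h and on no other array. Its total signal there was 9.78 ± 1.82, and both of its probes passed the limit, at 3.28 and 4.31 errors. The other arrays were not empty. Its probes stood at 2.46 and 2.69 errors in the control at 2 h, 1.84 and 2.40 in the control at 4 h and 0.89 and 1.28 with berberine at 2 h. In the control at 4 h the sum of the probes was 6.44 ± 2.15. The scaled log2 ratio of these sums at 4 h was 0.20 (SE 0.55), a 1.15-fold difference. After scaling, the flag at 4 h thus separated arrays whose summed signals did not differ beyond their errors. Unscaled, those sums lay further apart than their combined error. With berberine at 2 h the sum was 3.45 ± 2.24, the lowest of the arrays. These sums include probes under the limit and are not the deposited totals.

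**Figure D4:**
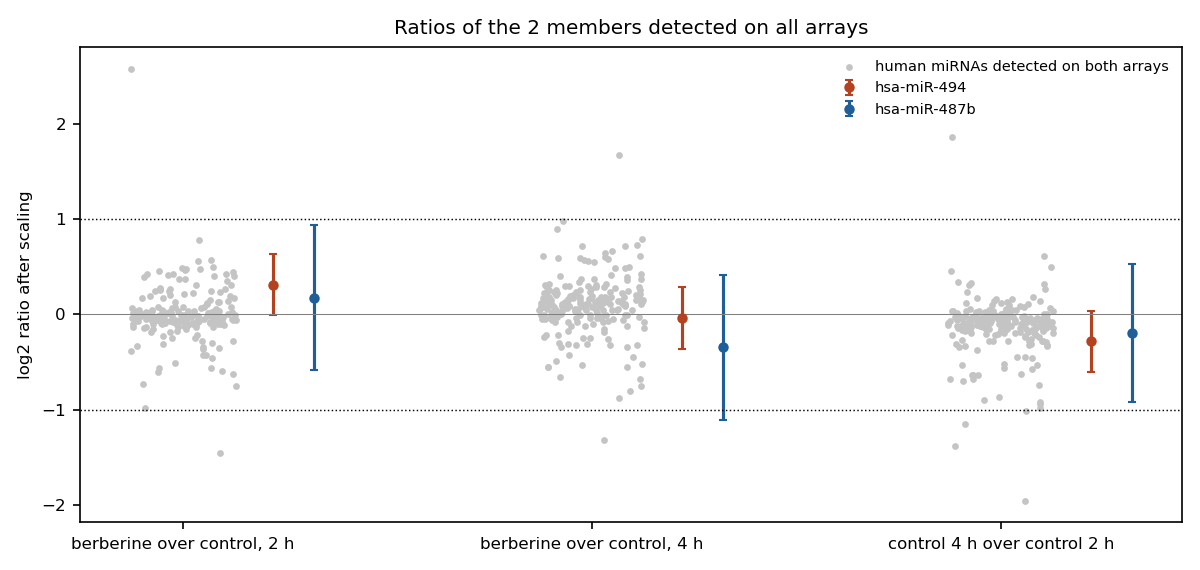
Scaled log2 ratios of berberine over control at 2 h and 4 h, and of the control at 4 h over the control at 2 h; grey points are the human miRNAs detected on both arrays, coloured points are hsa-miR-494 and hsa-miR-487b with bars of the 95% range from the measurement errors, and dotted lines mark 2-fold. The points of both members lie between the dotted lines in all 3 comparisons, but the bar of hsa-miR-487b at 4 h reaches -1.11, past 2-fold.

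Whether the members moved together could be asked of only 2 of them. At 2 h 0 of the 2 members passed 2-fold, against 1.02% of the 197 human miRNAs detected on both arrays. At 4 h 0 of 2 passed it, against 0.917% of 218. The median scaled log2 ratio of all human miRNAs was -0.02 at 2 h and 0.11 at 4 h. Both members were above 0 at 2 h and below 0 at 4 h, signs that 37 of the 197 (18.8%), these members included, showed. Without scaling all 4 signs turned, hsa-miR-487b then standing at -0.35 at 2 h and 0.055 at 4 h. The ratio at 4 h minus that at 2 h was -0.35 (SE 0.23) for hsa-miR-494 and -0.52 (SE 0.55) for hsa-miR-487b. All 4 ratios lay inside the middle 95% of all human miRNAs at their time, which spanned -0.61 to 0.49 for the 2 h pair and -0.62 to 0.72 for the 4 h pair.

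A limma fit of treatment and time over all 4 arrays took the times as the replicates and had 1 residual degree of freedom. It gave a log2 ratio of berberine over control of 0.14 (SE 0.21, adjusted p = 0.997) for hsa-miR-494. For hsa-miR-487b it gave -0.08 (SE 0.21, limma adjusted p = 0.997). Of the 197 miRNAs tested, 1 (0.508%) had an adjusted p under 0.05 and 9 had an unadjusted p under 0.05, and 0 of the 2 members were among either. Since the times may differ in their response, this fit measures only what they had in common.

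The opposite arm of the miR-431 hairpin stood apart from its partner. hsa-miR-431* (now miR-431-3p) has the sequence below, with its seed in capitals, and lies at chr14:100881069-100881090 on the plus strand of GRCh38.p14, within the interval of RTL1.
hsa-miR-431*: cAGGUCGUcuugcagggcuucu
Its total signal was 10.28 ± 1.24 in the control at 2 h, 2.61 ± 0.83 with berberine at 2 h, 4.97 ± 1.11 in the control at 4 h and 10.91 ± 1.31 with berberine at 4 h. The deposited totals gave a scaled log2 ratio of -1.45 (SE 0.49) at 2 h, past 2-fold. At 4 h they gave 0.73 (SE 0.37), and the control at 4 h over the control at 2 h gave -0.94 (SE 0.37). Those totals, however, did not sum the same number of probes on every array. Of 4 probes, 4 passed the limit in the control at 2 h, 1 with berberine at 2 h, 2 in the control at 4 h and 4 with berberine at 4 h. Probe by probe, the scaled ratio at 2 h was 0.67 (SE 0.63), 0.32 (SE 0.64), 0.06 (SE 0.61) and 0.58 (SE 0.58), above 0 on each. Without scaling, probes 1 and 4 were higher with berberine at 2 h and probes 2 and 3 lower. With all 4 probes summed on every array the scaled ratio was 0.40 (SE 0.31) at 2 h and -0.01 (SE 0.32) at 4 h. The direction at 2 h had thus turned, but only after scaling. Unscaled, the sums at 2 h were 10.28 ± 1.24 in the control and 9.44 ± 1.65 with berberine. The partner arm hsa-miR-431 was detected on no array.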

How the data were processed

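The authors hybridised total RNA to 1-colour Agilent human miRNA arrays and read them with Feature Extraction 10.7.3.1. The deposited intensity values were used as that software wrote them: a total gene signal with its error and detection flag, a total probe signal per probe and a processed signal per spot, none normalized between arrays. The flag matched a probe above 3 errors, and an undetected miRNA is written with a small constant. A whole-series table holding the authors' own ratios of berberine over control was not used, and 0 other per-sample columns were left out.

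From these, log2 signals were scaled to each array's 75th percentile over the human miRNAs that every array detected. Standard errors were propagated from the errors of the software, and 95% ranges assume a normal error. The study's 2-fold threshold was kept. limma 3.58.1 (R 4.3.3) was fitted across all 197 miRNAs with Benjamini-Hochberg adjustment, and checked on simulated data. Arrays carried 15739 features each, of which 0 were saturated. With 1 array a condition, the number of arrays limits the precision. Each member had 16 spots.

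The members and lists were chosen with earlier results of these data known. Every member detected on at least 1 array is named with its values, and the others by name. Sequences, gene order and positions are from RefSeq (GRCh38.p14).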

Additional observations from a re-analysis of the deposited data

Results flagged for a closer look

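The ratios of both members detected on every array changed sign between the times. In hsa-miR-494, berberine over control gave a scaled log2 ratio of 0.31 at 2 h, whereas the 4 h value was -0.038. In hsa-miR-487b the 2 h value was 0.18 and the 4 h value -0.34. Whether the times differ was not tested, since each time has 1 array a condition, and the 95% range of each of the 4 ratios included 0. Opposite signs at the 2 times were shown by 133 of the 197 human miRNAs detected throughout (67.5%).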

How the results depend on the processing

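Under the 5 other definitions of detection, 21.0% to 37.0% of all human miRNAs were detected on at least 1 array. The count of members so detected stayed between 2 and 4, but the names changed. Where each probe had to pass 3 errors, they were hsa-miR-134 and hsa-miR-494. With 5 errors, or with at least 50% of the spots well above background, they were hsa-miR-487b and hsa-miR-494. Only hsa-miR-494 was detected under every definition. The 4 came from a rule chosen after seeing the data, a mean over the spots above the highest negative control probe, which adds hsa-miR-337-3p. The count detected on all 4 arrays was 1 where each probe had to pass 3 errors, 1 where a probe had to pass 5 errors and 1 where at least 50% of the spots had to be well above background. By those rules 16.6%, 18.7% and 18.1% of all human miRNAs were detected on all 4 arrays, against 23.1% by the flag. Without scaling, the log2 ratio at 2 h was -0.21 for hsa-miR-494 and -0.35 for hsa-miR-487b, and at 4 h 0.36 and 0.055. When the 75th percentile was taken over every human miRNA on the array, the values at 2 h were 5.42 and 5.28, so that 2 members passed 2-fold, and those at 4 h were -0.44 and -0.75. That percentile falls on the 0.1 written for undetected miRNAs with berberine at 2 h, so the setting scales on no signal there. For hsa-miR-494 at 4 h the median gave -0.21 and normexp -0.37. In the limma fit hsa-miR-494 reversed to -0.045 with normexp, and hsa-miR-487b to 2.27 with the 75th percentile over all miRNAs. Leaving out each array in turn, with the time point dropped, gave -0.18 to 0.45 for hsa-miR-494 and -0.44 to 0.27 for hsa-miR-487b, each changing sign without some arrays. The adjusted p of both stayed at or above 0.444 in all limma alternatives. Dropping the time point, which pairs the arrays, from the limma fit left both directions and calls as they were.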
